A study of Homo sapiens with 9 samples.

Results

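The contractile and YAP/SRF target genes described here are 10 genes, of which 6 encode parts or regulators of the contractile actin apparatus (ACTA2, MYLK, MYL9, TAGLN, CNN1 and TPM1) and 4 are widely used readouts of the YAP/TEAD and SRF pathways (CCN1, CCN2, ANKRD1 and AMOTL2). They were chosen by name, with earlier results of these data known. Their counts are therefore set beside those of all genes as a description. Each gene was represented by its probe with a single gene symbol (where there were several, the one with the highest mean over the arrays). All 10 have such a probe, among 18417 genes that do and 33297 probes in all. The cells were MDA-MB-231, a triple negative line of human breast cancer, and their RNA was hybridized to 9 Affymetrix arrays of human genes, with 3 arrays in each group. Cells had received SID, a cell-penetrating decoy peptide with the SIN3 interaction domain of MAD1, at 2.5 μM for 24 hours, or SCR, a scrambled peptide with the same cell-penetrating tag, for the same time, or were left untreated (UT). The comparison of SID with SCR asks what the decoy does beyond the peptide itself, and the comparisons with UT set both peptides against cells that received none. The study gives the same cell line for all groups. The labels do not say which replicates were separate cultures, so the p-values given measure the spread between these arrays, which may be technical. In the main fit that spread includes a gap between sets of arrays, described below.

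In contracting and crawling cells, actin filaments slide along myosin once myosin light chain has been phosphorylated by myosin light chain kinase. Pools of free actin and the tension of stress fibers feed back on transcription. Free actin holds the MRTF coactivators of serum response factor (SRF) out of the nucleus, and tension lets YAP and TAZ enter it, where they bind DNA through TEAD factors. SRF binds the CArG box, a short element of the smooth muscle and cytoskeletal genes, and TEAD factors bind a GGAATG core. Breast cancer cells of mesenchymal character use both pathways in spreading and invasion.

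Sequences upstream of the gene starts are shown because they carry the letters these factors are known to bind. RefSeq promoters (GRCh38.p14) were found for 7 of the 10 genes, 9 promoters in all. TAGLN, MYL9 and CCN1 had no entry. In the 250 bases before each start, both strands were searched for the CArG box and for GGAATG, which do not overlap one another in these promoters. The box was searched only as CCWWWWWWGG, where W is A or T, so boxes that depart from this pattern were not counted. Of 35116 promoters in the table, 1.16% held a CArG box and 11.9% held GGAATG. The CArG box was found in 1 of the 9 promoters, that of an internal start of MYLK, and GGAATG in 4, those of CCN2, ANKRD1, the second AMOTL2 entry and the second ACTA2 entry. MYLK had no other entry, and this one lies inside the gene (chr3:123610049-123884332). The promoter at the outer start of MYLK was therefore not searched. Matches are in capitals, and the stretches are written 5′ to 3′ on the strand of the gene, which is the minus strand in each case.
MYLK, chr3:123620613-123620662, CArG box: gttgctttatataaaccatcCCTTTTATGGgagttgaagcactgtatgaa
ACTA2, second entry, chr10:88952931-88952976, TEAD core: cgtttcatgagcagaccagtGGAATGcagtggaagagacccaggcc
CCN2, chr6:131951442-131951561, TEAD cores: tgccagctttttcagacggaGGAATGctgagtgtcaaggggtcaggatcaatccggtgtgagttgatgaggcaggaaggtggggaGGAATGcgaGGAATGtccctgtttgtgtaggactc
ANKRD1, chr10:90921190-90921327, TEAD cores: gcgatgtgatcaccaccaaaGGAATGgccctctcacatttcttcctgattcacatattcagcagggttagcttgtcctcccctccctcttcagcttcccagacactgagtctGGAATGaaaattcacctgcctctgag
CCN2 held 3 matches, a number reached by 0.083% of all promoters in the table, and ANKRD1 held 2, which 0.94% reached or passed. These are matches of letters and not measured sites.

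Replicates 1 and 2 of SID and SCR formed an array set of their own. Replicate 3 of both peptides lay with the 3 UT arrays on the first principal component, which held 78.6% of the variance over 1 probe per gene. In a supplementary table of the study, the headings of replicate 3 carry a prefix not used for replicates 1 and 2, and that of SCR replicate 3 names a longer time than the label does. CD44, a surface marker of this cell line, was at 13.17 and 13.21 log2 signal in SID replicates 1 and 2 and at 13.25 in both SCR ones, against 10.68 to 10.84 on the other 5 arrays. EPCAM, an epithelial marker expected to be low in this line, was at 9.74 and 10.14 in SID and 10.78 and 10.94 in SCR replicates 1 and 2, and at 6.14 to 6.87 on the other arrays. VIM, a mesenchymal marker, was at 12.75 to 13.34 on all 9 arrays. Not all epithelial markers moved as EPCAM did. KRT18, an epithelial keratin, was at 12.32, 12.39 and 13.67 in SID, 13.23, 13.38 and 13.63 in SCR and 13.29 to 13.56 in UT, so that it was lower in replicates 1 and 2 than in replicate 3 by 1.32 in SID and by 0.32 in SCR. GATA3, a luminal factor, was higher in replicates 1 and 2 by 1.41 in SID and 2.32 in SCR. The other markers of the line had gaps, in SID and SCR, of 1.43 and 0.79 (S100A4), 0.09 and 0.80 (EGFR) and 0.52 and 0.07 (ITGB1), and ESR1, PGR and ERBB2, expected to be low, had gaps of -0.19 to 0.12. ESR1 and PGR lay below the array medians of 7.68 to 7.77 on all 9 arrays, but ERBB2 lay above them, at 9.15 to 9.64. Of the smooth muscle markers, MYH11 was at 6.63 to 7.16, LMOD1 at 6.04 to 6.40 and DES at 7.90 to 8.94 over the arrays. Of 5 markers of endothelial, blood and fat cells, PECAM1 was at 6.99, 6.33 and 5.86 in SID, 7.96, 7.65 and 6.18 in SCR and 5.73 to 6.03 in UT, and its part in the results was not tested. The other 4 (VWF, PTPRC, CD3E and ADIPOQ) varied by 0.23 to 0.34 log2 units over the arrays. Since no UT array belongs to the set of replicates 1 and 2, a difference of those arrays from UT cannot be told apart from the difference between the sets.

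On all 9 arrays, ACTA2 was the single gene of the 10 whose 3 SID arrays lay above its 3 SCR arrays, and TAGLN the single one whose SID arrays lay below. Over all genes, 4.02% lay above in this way and 1.60% below. In the limma fit of the 9 arrays, a call needed a difference of more than 1 log2 unit in either direction and a p below 0.05 after Benjamini-Hochberg adjustment over 19460 probes. By this rule 0 of the 10 genes were called between SID and SCR, as were 0% of all probes. Unadjusted p was under 0.05 for 1474 probes and for 2 of the 10, ACTA2 and TAGLN. This fit has no term for the array sets, so the gap between them enters its SEs and p-values. With the array set as a term in the limma fit, unadjusted p was under 0.05 for 4034 probes and for 5 of the 10, and 0 probes were called. In replicates 1 and 2 alone, 1.77% of probes were called higher in SID and 2.64% lower, and 2 of the 10 genes were called, ACTA2 and MYLK, both higher. Leaving out SID replicate 3 gave 2 calls among the 10, with 279 probes called higher and 369 lower over all. Leaving out SCR replicate 3 gave 1 call, with 63 probes higher and 160 lower. In both fits with 1 array left out, the gap between the sets enters the difference, because only 1 peptide group still holds arrays of both sets. In replicates 1 and 2 alone it does not enter, because all arrays there are of the same set.

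**Figure D1:**
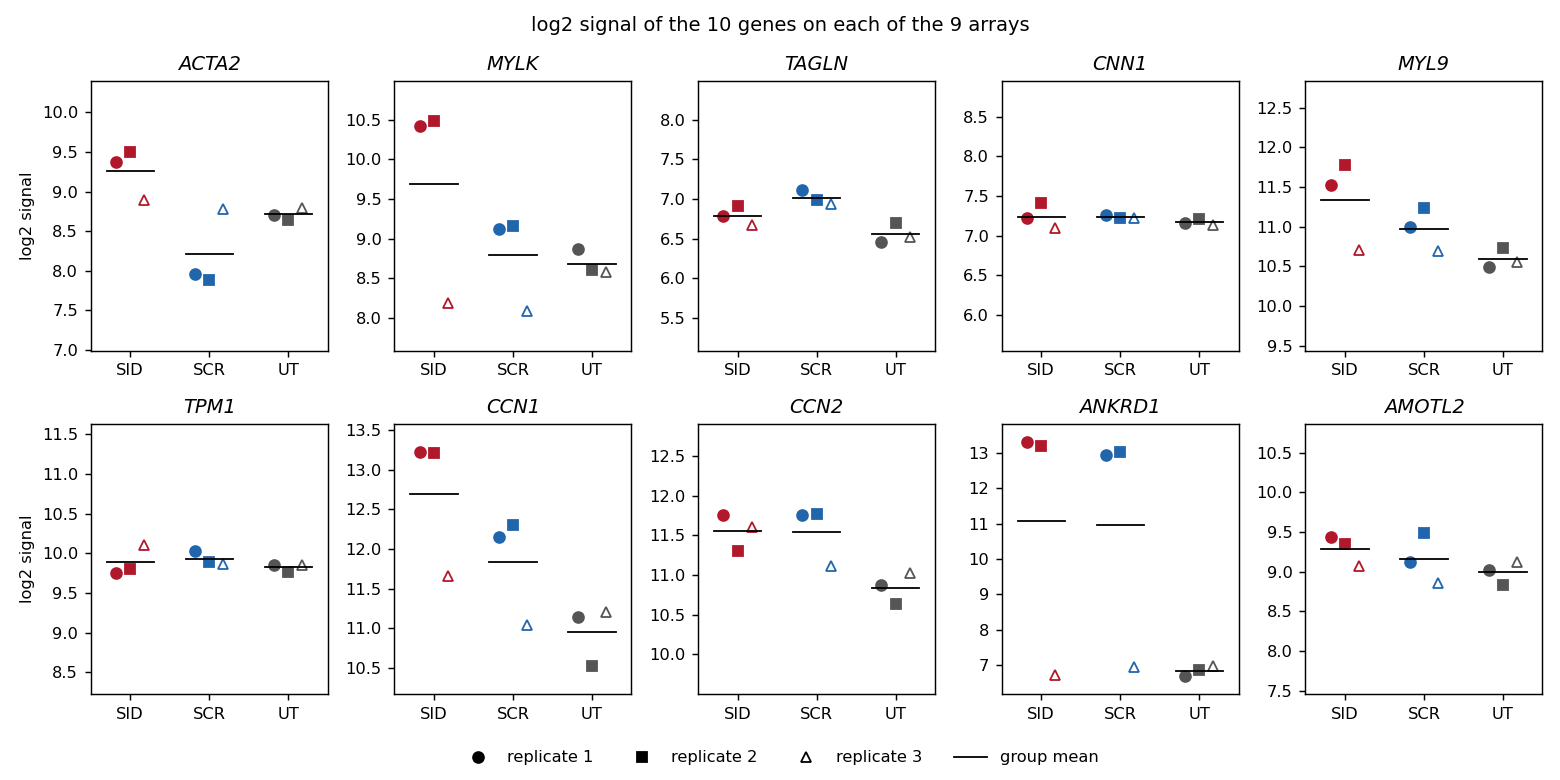
log2 signal (vertical axis) of each of the 10 genes on the SID, SCR and UT arrays. Each point is 1 array, filled for replicates 1 and 2 and open for replicate 3, and the line is the group mean. The vertical axes span at least 3.4 log2 units and differ between genes. ANKRD1 stands near 13 in replicates 1 and 2 of both peptides and near 7 on the other 5 arrays, while ACTA2 is above UT in SID and below UT in SCR in replicates 1 and 2.

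ACTA2 encodes smooth muscle α-actin, the actin of contractile stress fibers in myofibroblasts. Its log2 signal was 9.37, 9.50 and 8.89 in SID replicates 1 to 3, 7.95, 7.89 and 8.78 in SCR replicates and 8.70, 8.64 and 8.79 in UT. In replicates 1 and 2, SID therefore stood above every UT array and SCR below every UT array, while replicate 3 was 0.18 above the UT mean in SID and 0.07 above it in SCR. The differences between SID and SCR were 1.42, 1.61 and 0.11 in replicates 1 to 3. The mean over 3 replicates was 1.05 (SE 0.26, limma adjusted p = 0.657), a 2.07-fold higher level in SID, and ranked 86 of 18417 genes. In replicates 1 and 2 alone it was 1.51 (SE 0.09, adjusted p = 0.0160), or 2.85-fold. Against UT, the replicate 1 and 2 mean was 0.72 higher in SID and 0.79 lower in SCR. No UT array belongs to that set, so neither value can be told apart from the difference between the sets.

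The regulators of myosin gave values of the same direction. MYLK encodes myosin light chain kinase. It was at 10.41, 10.48 and 8.18 in SID, 9.12, 9.16 and 8.09 in SCR and 8.86, 8.60 and 8.58 in UT. SID was higher than SCR by 1.29 and 1.32 in replicates 1 and 2 and by 0.09 in replicate 3, where both peptides lay below all UT arrays. Its mean difference was 0.90 (SE 0.61, adjusted p = 0.754) on all arrays and 1.31 (SE 0.08, adjusted p = 0.0160), or 2.47-fold, in replicates 1 and 2 alone. MYL9, a regulatory light chain that this kinase phosphorylates, was at 11.52, 11.78 and 10.70 in SID, 11.00, 11.24 and 10.69 in SCR and 10.49, 10.73 and 10.56 in UT. SID exceeded SCR by 0.53 and 0.54 in replicates 1 and 2 and by 0.01 in replicate 3. The mean of 0.36 (SE 0.27, adjusted p = 0.787) did not pass the test, nor did the value of 0.53 in replicates 1 and 2 alone (adjusted p = 0.0807). On all arrays the gap between the sets enters these SEs. With the replicate number as a block in the limma fit, the SE was 0.29 for MYLK, 0.15 for MYL9 and 0.33 for ACTA2 (adjusted p = 0.526 for each).

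The actin-binding genes differed less. TAGLN encodes transgelin (SM22), an actin-bundling protein that marks smooth muscle and is a standard SRF target. It was at 6.78, 6.90 and 6.67 in SID, 7.11, 6.99 and 6.93 in SCR and 6.46, 6.69 and 6.52 in UT. SID was below SCR in 3 of 3 replicates, by differences of -0.33, -0.09 and -0.26, with a mean of -0.23 (SE 0.10, adjusted p = 0.657). TAGLN and CNN1 lay below the array medians of 7.68 to 7.77 on all 9 arrays, and TAGLN did not pass the test. CNN1, calponin, which restrains myosin activity in smooth muscle, was within 7.09 to 7.41 in SID, 7.22 to 7.26 in SCR and 7.14 to 7.21 in UT, and the mean difference between SID and SCR was 0.01 (SE 0.09, adjusted p = 0.999). TPM1, a tropomyosin that lies along the actin filament, was within 9.75 to 10.10 in SID, 9.87 to 10.03 in SCR and 9.76 to 9.85 in UT, with a mean difference of -0.04 (SE 0.10, adjusted p = 0.966). The replicate differences of CNN1 and TPM1 had both signs.

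**Figure D2:**
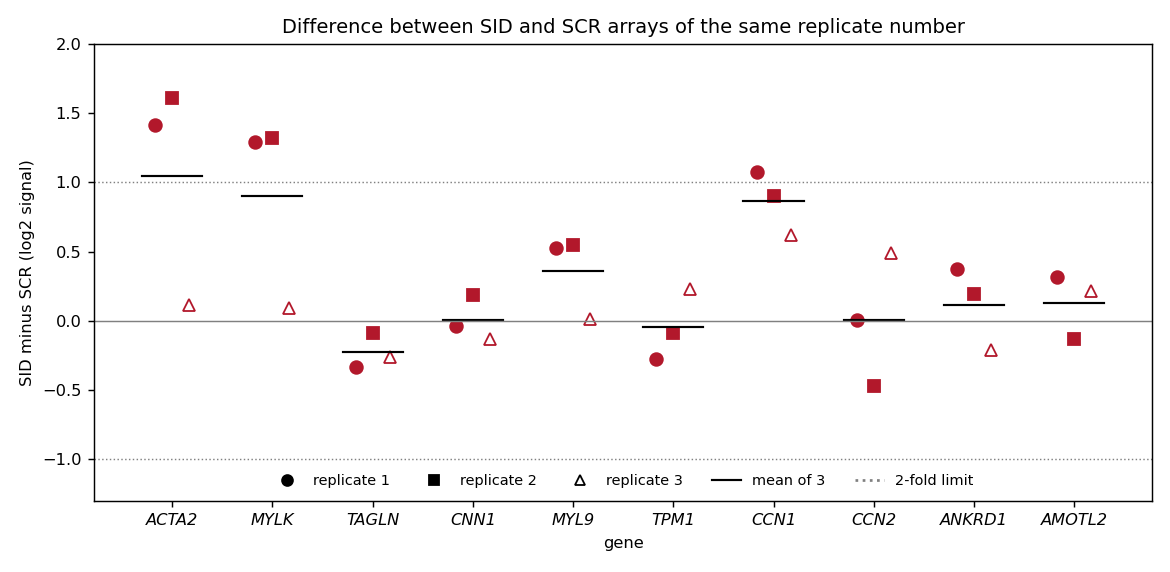
SID minus SCR (vertical axis, log2 signal) for arrays of the same replicate number, for each of the 10 genes (horizontal axis). Symbols are replicates, the line is the mean of 3, and dotted lines mark a 2-fold difference. Values above 1 occur for ACTA2 and MYLK in replicates 1 and 2 and for CCN1 in replicate 1, and none occur in replicate 3.

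CCN1 (CYR61) and CCN2 (CTGF) are secreted matrix proteins of the CCN family whose genes respond to both YAP/TEAD and SRF. CCN1 was at 13.23, 13.21 and 11.66 in SID, 12.15, 12.31 and 11.05 in SCR and 11.15, 10.52 and 11.20 in UT. SID was above SCR within each replicate number, by 1.07, 0.90 and 0.62, although SCR replicates 1 and 2 lay above SID replicate 3. The mean difference was 0.86 (SE 0.50, adjusted p = 0.700), a 1.82-fold higher level. With the replicate number as a block, which removes the gap between the sets, its SE was 0.12 and its adjusted p was 0.526. In replicates 1 and 2 alone its difference of 0.99 had an adjusted p of 0.0182 and fell short of the 2-fold limit. CCN1 was the gene of the 10 with the highest difference in replicate 3. That difference of 0.62 had an adjusted p of 1 in a fit with 5 groups of arrays (SID and SCR of each set, and UT), added after the data had been seen.

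CCN2, the gene with 3 GGAATG cores shown above, did not share this pattern. It was at 11.76, 11.30 and 11.60 in SID, 11.75, 11.77 and 11.11 in SCR and 10.87, 10.63 and 11.03 in UT. The differences between SID and SCR were 0.00, -0.47 and 0.49, with a mean of 0.01 (SE 0.21, adjusted p = 1), and the groups overlapped. Both peptide groups lay wholly above UT. The mean excess over UT was 0.71 (SE 0.21, adjusted p = 0.388) for SID and 0.70 (SE 0.21, adjusted p = 0.332) for SCR. Within the array set that holds UT, replicate 3 was above the UT mean by 0.76 in SID and by 0.27 in SCR (5-group fit, adjusted p = 0.255 and 0.911).

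ANKRD1 (CARP), a nuclear ankyrin repeat protein of strained muscle and a standard YAP/TEAD readout, was at 13.32, 13.21 and 6.72 in SID, 12.95, 13.02 and 6.93 in SCR and 6.67, 6.85 and 6.96 in UT. Replicates 1 and 2 of both peptides were thus far above the other 5 arrays. The mean of replicates 1 and 2 was 6.54 above replicate 3 in SID and 6.05 above it in SCR, and by size these gaps ranked 8 and 10 of 18417 genes. On the other 5 arrays the signal lay below the array medians of 7.68 to 7.77, and whether it stood above background there was not assessed, so no fold is given. The difference between SID and SCR was 0.37, 0.19 and -0.21 in replicates 1 to 3, with a mean of 0.12 (SE 2.17, adjusted p = 0.999). In the fit of 9 arrays the gap enters that SE, and with the replicate block the SE was 0.14 (adjusted p = 0.809). AMOTL2, an angiomotin that binds YAP and is itself a YAP target, was within 9.07 to 9.44 in SID, 8.86 to 9.48 in SCR and 8.83 to 9.13 in UT. Its mean difference was 0.13 (SE 0.18, adjusted p = 0.917), with replicate differences of 0.31, -0.13 and 0.21.

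The gap between the sets differed from gene to gene among the 10. In SID, 3 of the 10 genes (MYLK, CCN1 and ANKRD1) were over 1 log2 unit higher in replicates 1 and 2 than in replicate 3, against 7.52% of all genes, and the same 3 were so in SCR, against 6.89%. MYLK was 2.26 higher in SID and 1.05 higher in SCR. CCN1 was 1.55 higher in SID and 1.18 higher in SCR. ACTA2 was 0.54 higher in SID but 0.86 lower in SCR. The remaining 6 genes had gaps of -0.32 to 0.95 in SID and 0.02 to 0.65 in SCR. Of the 11 markers of the line given above, CD44, EPCAM and GATA3 were over 1 log2 unit higher in replicates 1 and 2 in both peptide groups, S100A4 was so in SID, and KRT18 was over 1 unit lower in SID. Their part in the gaps of the 10 genes was not tested.

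**Figure D3:**
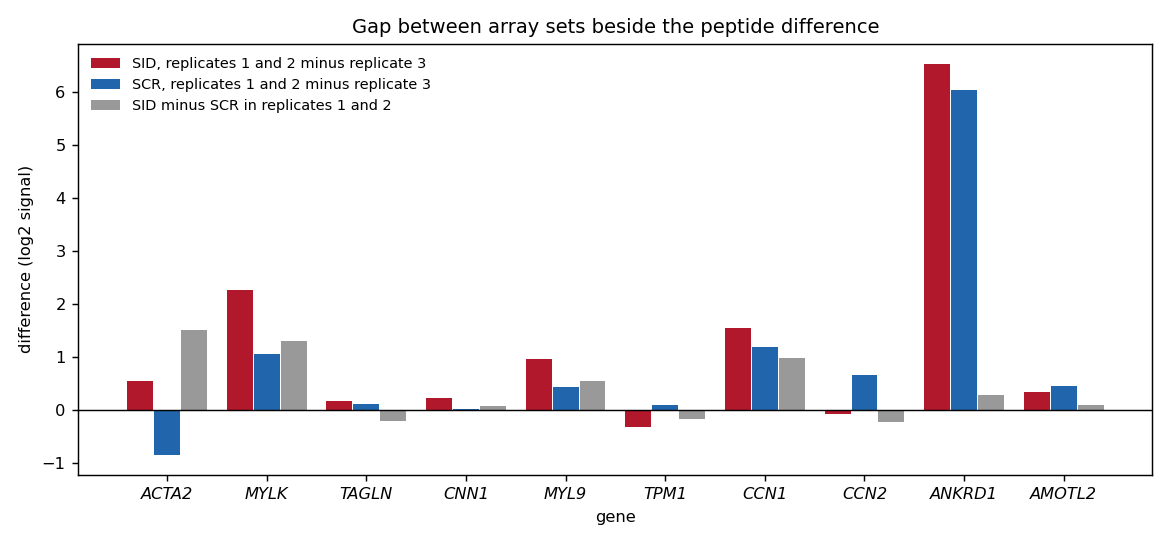
Differences in log2 signal (vertical axis) for each of the 10 genes: the mean of replicates 1 and 2 minus replicate 3 in SID and in SCR, and SID minus SCR in replicates 1 and 2. The ANKRD1 gap between sets is 6.54 in SID and 6.05 in SCR, beside a difference of 0.28 between SID and SCR, whereas the ACTA2 gaps of 0.54 and -0.86 lie beside a difference of 1.51.

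Whether SID and SCR differed by more in one set than in the other was tested in the 5-group fit. The difference of ACTA2 was larger in replicates 1 and 2 than in replicate 3 by 1.40 (SE 0.16, adjusted p = 0.00661), and that of MYLK by 1.22 (SE 0.20, adjusted p = 0.0159). These were the 2 of the 10 genes called higher in this test, against 1.72% of probes. In CCN1 the difference between the sets was 0.37 (SE 0.37, adjusted p = 0.607), and in CCN2 it was -0.73 (SE 0.30, adjusted p = 0.194). Only replicate 3 stands for its set in SID and in SCR, so its spread was taken from the other groups.

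Per replicate, 3 of the 10 genes exceeded a log2 difference of 1 between SID and SCR in replicate 1 (2.10% of all genes), 2 in replicate 2 (2.48%) and 0 in replicate 3 (0%). The median of the 10 differences was 0.34, 0.19 and 0.10 in replicates 1, 2 and 3. The median of their mean differences was 0.12, against 0.02 over all probes. Higher mean values in SID were seen in 8 of the 10, and of these CNN1 and CCN2 were within 0.01 of 0.

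Between SID and UT, and likewise between SCR and UT, 0 of the 10 genes were called on 9 arrays, as were 0% of probes in each comparison. Unadjusted p was under 0.05 for 2432 and 2811 probes, with 4 and 2 of the 10 genes among them. ACTA2, CCN1 and CCN2 had all 3 SID arrays above all UT arrays, against 10.8% of all genes, and 0 of the 10 lay below in this way (8.08% of all genes). CCN2, CNN1, TAGLN and TPM1 had all 3 SCR arrays above all UT arrays, against 9.59%, and again 0 lay below (12.1%). Of these, TAGLN had the largest excess after CCN2, 0.45 (SE 0.10, adjusted p = 0.332). With SID replicate 3 left out, 4 of the 10 genes were called higher in SID than in UT, as were 4.71% of probes, and 0 were called lower, as were 5.29%. That contrast sets 1 array set against the other, and set and peptide cannot be told apart in it. In the 5-group fit, where replicate 3 was set against UT, 0 of the 10 genes were called for SID or SCR (0.0103% and 0% of probes).

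Other genes of the same apparatus were counted from lists. Of 26 further contractile genes, 24 were measured, and 0 were called on all arrays. Their median difference between SID and SCR was 0.11. TPM2, another tropomyosin, differed by -0.95, -1.28 and 0.06 in replicates 1 to 3. It was the 1 gene of the list called in replicates 1 and 2 alone (lower, adjusted p = 0.0190), where 2.64% of all probes were called lower. CALD1, the actin-binding protein caldesmon, differed by 0.12, 0.69 and 0.13. TPM2 was also far below UT in that set, at 8.65 and 8.53 in SID and 9.60 and 9.81 in SCR, against 11.11 to 11.47 in UT. Its differences in replicates 1 and 2 had the opposite sign to those of ACTA2 and MYLK.

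Among SRF and its coactivators, 9 of 10 genes were measured and 0 were called on all arrays. For SRF, SID exceeded SCR in 3 of 3 replicates, by 0.58, 0.49 and 0.40, and the mean of 0.49 did not pass the test (adjusted p = 0.683). MRTFB, an actin-regulated coactivator of SRF, differed by -1.02, -1.49 and 0.13. It was called lower in replicates 1 and 2 alone (adjusted p = 0.0217), as were 2.64% of all probes. Of 12 immediate early genes driven by SRF, 11 were measured and 0 were called in either fit. JUNB, an AP-1 subunit, differed by 0.99, 0.77 and -0.09, and EGR1, a zinc finger factor, by 1.08, 0.18 and 0.41. The median of this list was 0.18.

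All 18 further YAP/TAZ target genes were measured, with a median of 0.21 and 0 called on all arrays. In replicates 1 and 2 alone 2 were called, both higher in SID, against 1.77% of all probes called higher in that fit. CCDC80, a matrix protein, was at 11.52, 11.85 and 7.96 in SID, 10.24, 9.82 and 7.92 in SCR and 8.37 to 8.50 in UT. It differed between SID and SCR by 1.28, 2.03 and 0.04 (adjusted p = 0.0214 in replicates 1 and 2). GADD45A, a stress-induced growth arrest gene, differed by 1.05, 1.36 and 0.13 (adjusted p = 0.0273). Both had, as MYLK did, higher levels in replicates 1 and 2 than in replicate 3 in both peptide groups, by 3.72 and 1.92 in SID and by 2.11 and 0.85 in SCR. In SCR, 6 of the 18 were over 1 log2 unit higher in replicates 1 and 2 (6.89% of all genes) and 1 was over 1 unit lower (3.89%). The largest gaps of the list were those of NT5E, 5.76 in SID and 6.38 in SCR, a size near that of the ANKRD1 gaps.

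The 22 genes of the Hippo pathway, the kinase cascade that keeps YAP and TAZ out of the nucleus, and of the TEAD factors had a median of -0.04 and 0 calls on all arrays. In replicates 1 and 2 alone 2 were called, both lower in SID, against 2.64% of all probes called lower in that fit. NF2 (merlin), an upstream activator of the cascade, was at 8.02, 8.21 and 10.97 in SID, 9.48, 9.90 and 10.76 in SCR and 10.64 to 10.83 in UT. It differed between SID and SCR by -1.47, -1.69 and 0.22 (adjusted p = 0.0205). VGLL1, a cofactor of TEAD factors, was at 6.42, 6.70 and 6.46 in SID, 8.19, 8.82 and 6.54 in SCR and 6.41 to 6.61 in UT, with differences of -1.77, -2.13 and -0.08 (adjusted p = 0.0226). In VGLL1 only SCR replicates 1 and 2 stood apart, and SID replicate 2 was the only SID array above the range of UT. In the CCN family beyond CCN1 and CCN2, 4 genes were measured and 0 were called on all arrays. CCN3 (NOV) differed by -1.07, -1.20 and 0.39. It was called lower in replicates 1 and 2 alone (adjusted p = 0.0278), as were 2.64% of all probes. CCN5 differed by 0.15, 0.75 and -0.01.

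**Figure D4:**
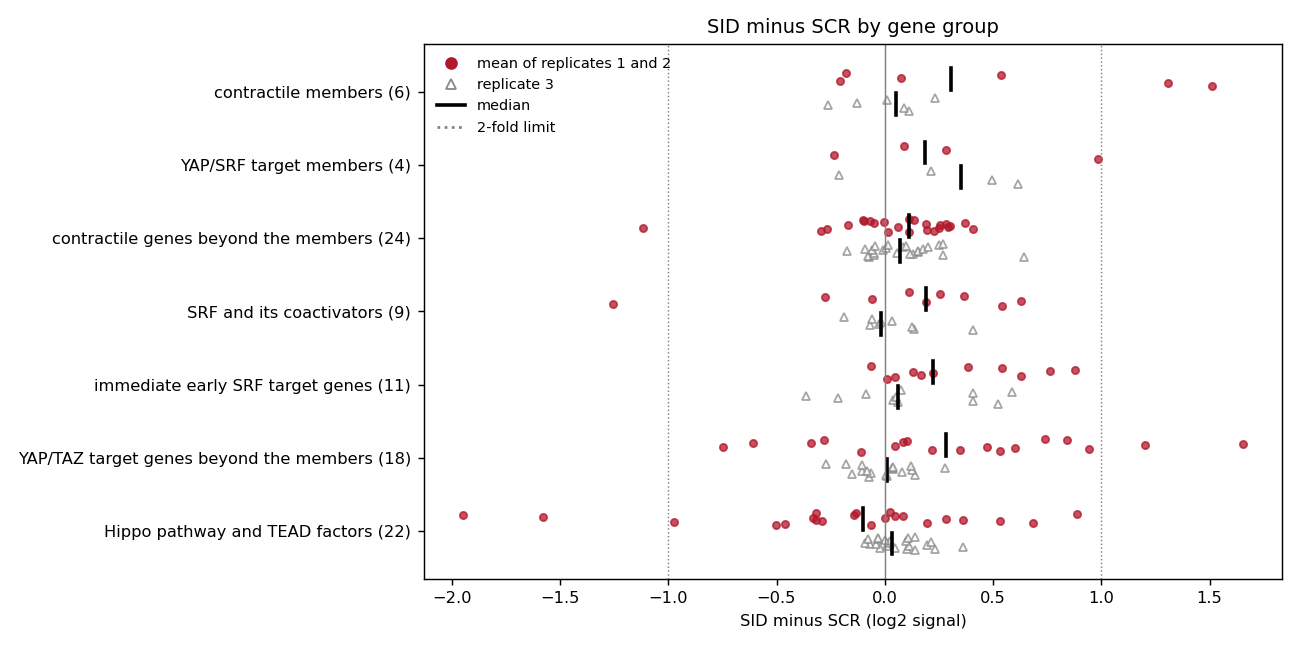
SID minus SCR (horizontal axis, log2 signal) for each gene of the 10 and of 5 lists (number measured in parentheses). Filled circles are means of replicates 1 and 2, open triangles are replicate 3, black bars are medians and dotted lines mark a 2-fold difference. Replicate 3 values stay inside the 2-fold limits in every list shown, whereas VGLL1, NF2, MRTFB and TPM2 lie below -1 and ACTA2, MYLK, CCDC80 and GADD45A above 1 in replicates 1 and 2.

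The genes whose signal followed that of ACTA2 most closely over the 9 arrays were BCL2L11 (Pearson r = 0.98), a pro-apoptotic BCL2 family member, WDR48 (0.98), a partner of deubiquitinating enzymes, and RNF24 (0.98). BCL2L11 was at 9.33, 9.46 and 8.90 in SID, 8.52, 8.43 and 8.90 in SCR and 8.90 to 8.95 in UT, with SID above and SCR below UT in replicates 1 and 2 as in ACTA2. The genes closest to CCN2 were PPP4R1 (0.95), a phosphatase subunit, TMCO4 (0.94) and MED17 (0.94), a subunit of the Mediator complex. These are the highest of 18417 correlations over arrays that fall into 2 sets, and they are given as a description. ACTA2 and MYLK, the genes called together in replicates 1 and 2, had a correlation of 0.44 over the same 9 arrays.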

How the data were processed

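RNA of 9 samples was hybridized to GeneChip Human Gene 1.0 ST arrays. The values per transcript cluster are log2 signals as deposited by the authors, whose labels name Affymetrix Expression Console, RMA and Transcriptome Analysis Console without version. No source gives the scale, which was taken as log2 because the values run between 3.75 and 14.9. The study's own analysis used single probes in another program and was not repeated. Its methods name median values of fewer replicates, called independent and biological, than the 3 per group used here. They do not say which replicates these were. Probes with 1 gene symbol (19460 of 33297) were tested, and 19429 of them were matched to RefSeq by Entrez ID.

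The main test used limma 3.58.1 (lmFit, eBayes; R 4.3.3) on the means of the 3 groups over all 9 arrays, without a block, with Benjamini-Hochberg adjustment over 19460 probes. The procedure was tested on simulated data. The simulated noise was independent between arrays and held no gap between sets, so that test does not show how the fit performs with such a gap. The number of arrays limits the precision, and 3 against 3 arrays cannot give an exact permutation p under 0.1. Replicate numbers of SID and SCR come from the sample titles. Deviations from group means correlated at 0.78, 0.58 and 0.79 in same-numbered pairs, all above 0.1, so a replicate block was run. SID 1 with SCR 2 (0.75) and SID 2 with SCR 1 (0.61) correlated about as well, so the values separate the array sets and not replicate 1 from 2.

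All 10 genes are named, and of each list the genes called on all arrays and the 2 with the largest mean difference. Others, such as those called in replicates 1 and 2 alone, were chosen after their values were seen. The 10 genes and the lists were chosen with earlier results of these data known. The result of 1 list is not reported here. Figures were drawn with matplotlib 3.10.9.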

Additional observations from a re-analysis of the deposited data

Results flagged for a closer look

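Both genes listed here were picked out because the difference between SID and SCR was not the same in the array sets, by a test of that difference in the 5-group fit. For ACTA2, SID exceeded SCR by 1.42 and 1.61 log2 units in replicates 1 and 2 and by 0.11 in replicate 3, and the difference between the sets was 1.40 (limma adjusted p = 0.00661). For MYLK, the corresponding values were 1.29 and 1.32, and 0.09, with a difference of 1.22 (adjusted p = 0.0159). That fit was added after the data had been seen, and its contrast rests on 1 SID and 1 SCR array for replicate 3, whose spread was assumed to be that of the other groups. Groups of 3 arrays were too small for the search for single outlying arrays.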

How the results depend on the processing

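Counts of called genes among the 10 changed in fits that left out, separated or weighted arrays and when the fold limit stood alone. Between SID and SCR, the count of 0 on 9 arrays became 2 in replicates 1 and 2 alone, 2 in the 5-group fit within those replicates, 3 with array weights (an estimate that stopped before convergence) and 1 by the fold limit alone. Leaving out 1 array at a time gave 0 to 2, with 2 without SID replicate 3 and 1 without SCR replicate 3. Over all probes the same comparison gave 0 calls on 9 arrays, 345 higher and 514 lower in replicates 1 and 2 alone, 379 and 645 in the 5-group fit, 324 and 437 with array weights, 279 and 369 without SID replicate 3, and 63 and 160 without SCR replicate 3. The fold limit alone was passed upward by 106 probes and downward by 209. Between SID and UT the count was 3 with array weights (1242 probes higher, 1147 lower), 3 by the fold limit alone (736, 610) and 0 to 4 when 1 array was left out (917, 1029 without SID replicate 3). Between SCR and UT it was 2 with array weights (1147, 969), 1 by the fold limit alone (672, 518) and 0 in every fit with 1 array left out. The cause of these changes was not tested. The replicate block (0 of the 10 called, lowest adjusted p = 0.526) changed no call, and neither did the array set as a term (0 called), quantile normalization, centring, the other filters, the mean over probes or the methods' t-test (0 after adjustment, 378 probes with an unadjusted p under 0.05). Replicate 3 alone against UT gave 0 genes past the fold limit.

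The median difference between SID and SCR was 0.12. It was 0.32 with array weights and 0.25 among probes above the median level, where fewer of the genes were tested, and -0.0097 (without SCR replicate 3) to 0.46 (without SID replicate 3) when 1 array was left out. Of 208 alternative values of the 10 differences, 14 changed sign, in 5 genes. With array weights CNN1 was -0.0010 and CCN2 was -0.052, and CCN2 was -0.23 in replicates 1 and 2 alone and in the 5-group fit. With 1 array left out, CNN1 ranged over -0.077 to 0.080, TPM1 over -0.15 to 0.023, CCN2 over -0.21 to 0.13, ANKRD1 over -1.90 to 2.30 and AMOTL2 over -0.020 to 0.30. Leaving out 1 SID or SCR array unbalances the array sets, so the gap between them enters these ranges. Within replicates 1 to 3 the ANKRD1 differences were 0.37, 0.19 and -0.21. ACTA2, MYLK, MYL9, TAGLN and CCN1 kept their sign in every alternative run, but with 1 array left out MYLK ranged over 0.51 to 1.66, MYL9 over 0.14 to 0.68 and CCN1 over 0.47 to 1.38. The highest of each was without SID replicate 3, and the lowest without SID replicate 2 for MYLK and MYL9 and without SCR replicate 3 for CCN1.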
